A study of Drosophila melanogaster with 7 samples.

Results

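Central brain neuroblasts were taken from single cell transcriptomes of dissociated brain lobes of late first instar Drosophila larvae. A cell was counted as a neuroblast when at least 3 of the 6 genes dpn, wor, klu, mira, grh and ase had a UMI (a unique molecular identifier, which counts each captured transcript once), with fewer than 2 of the optic lobe epithelium genes Ocho, Tom and Brd and fewer than 2 of nerfin-1, insb, tap and Hey, which mark ganglion mother cells and newborn neurons. The cells were thus chosen by their measured UMIs of these 13 genes. Of these, tap is also reported by the study as raised in mushroom body neuroblasts. It had a UMI in 24.8% of the cells chosen and 7.64% of those not chosen. Whether the rule removed such neuroblasts was not tested. The rule was met by 777 of the 8696 cells that had 201 to 4499 genes and under 20% mitochondrial UMIs, out of 9353 cells deposited. A further 86 cells with at least 3 of the 6 genes were not counted as neuroblasts because of the epithelium genes, and 213 because of the newborn neuron genes. The other cells named below are the 7919 of the 8696 cells that were not chosen. They include these 86 and 213 cells. The larvae were of the strain Wild type CS, kept at 25 °C, both conditions share this strain and the late first instar, and the labels name no transgene or mutation. In the starvation condition larvae spent 4 hr on 2% agar before dissection, from 11 hr after hatching according to the labels, and in the normal condition larvae stayed on food. The study's methods give a later start than the labels. Whether larvae of both conditions had the same age in hours at dissection was not tested.

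Neuroblasts are the stem cells of the insect brain. They divide asymmetrically, renew themselves and give off smaller ganglion mother cells, or intermediate progenitors in the type II lineages, whose daughters become neurons and glia. Most larval brain neuroblasts are quiescent at hatching, and feeding reactivates them through fat body and glial signals that act on the insulin receptor and the TOR kinase, whereas the mushroom body neuroblasts divide without a pause.

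The starvation condition consisted of replicates Starvation A (2 libraries) and Starvation B, and the normal condition of Normal A, Normal B (2 libraries) and Normal C. Neuroblasts made up 341 of 3459 cells in Starvation A (9.86%) and 56 of 888 in Starvation B (6.31%), against 34 of 1235 in Normal A (2.75%), 228 of 2309 in Normal B (9.87%) and 118 of 805 in Normal C (14.7%). All neuroblasts of a replicate together held 4303867 and 1040088 UMIs in Starvation A and B, against 275838, 2024139 and 2621168 in Normal A, B and C. Their median depth was 9413 and 15754 UMIs per cell in Starvation A and B, against 5616, 4985 and 19762 in Normal A, B and C. The share of neuroblasts averaged 8.08% ± 2.51 in starvation and 9.10% ± 5.99 in normal brains (SD, n = 2 and 3). This difference of -1.01 percentage points was smaller than the spread between replicates (exact two-sided permutation test, p = 0.8 over 10 assignments, where 0.1 is the smallest p possible). It turned to 1.77 points without Normal C, to 0.763 without Starvation B and to 0.520 when at least 4 of the 6 genes were required.

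Certain libraries shared cell barcodes. In Normal B, 134 of its 228 neuroblasts had a barcode whose UMI count was more than 3 times higher elsewhere, in a different library, and in Starvation A this held for 100 of 341, whereas there were none in the other replicates. Of the 134 in Normal B, 101 had most of their UMIs in a library of Starvation A. In the other direction, 60 of the 100 in Starvation A had most of theirs in a library of Normal B. The cell with most UMIs also met the neuroblast rule for 8 of the 101 and for 38 of the 60. Results of the comparison between conditions are therefore also given without these cells, called minor barcodes here.

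**Figure D1:**
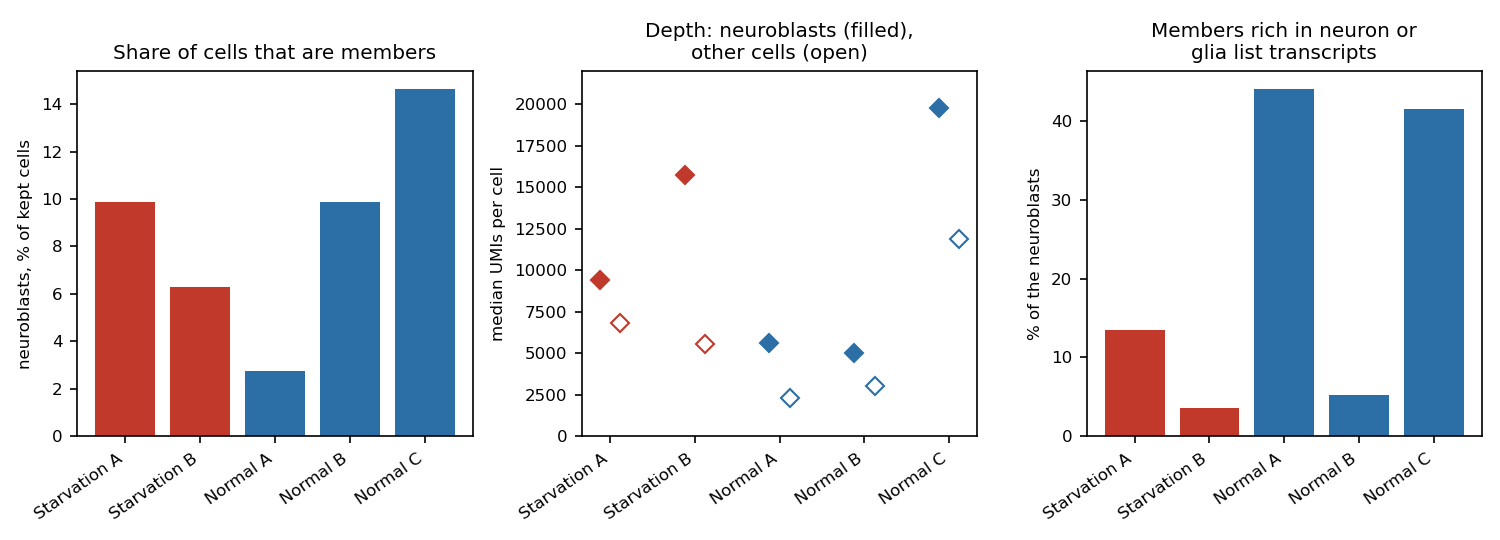
Neuroblasts in each replicate, starvation in red and normal in blue. Bars on the left give neuroblasts as percent of the kept cells, diamonds in the middle the median UMIs per cell (filled, neuroblasts, and open, other cells), and bars on the right the percent of neuroblasts rich in neuron or glia transcripts, which is 13.5% and 3.57% in Starvation A and B against 44.1%, 5.26% and 41.5% in Normal A, B and C.

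The 6 defining genes were not found equally often. The zinc finger gene klu had a UMI in 683 of the 777 neuroblasts (87.9%), and the adaptor mira, which carries fate determinants to the daughter cell, in 585 (75.3%). The Snail family gene wor was found in 581 (74.8%), the self-renewal factor dpn in 544 (70.0%), grh, a late temporal factor, in 497 (64.0%), and the proneural gene ase, which type II neuroblasts lack, in 50.5%. Exactly 3 of the genes were found in 274 neuroblasts, 4 in 193, 5 in 172 and all 6 in 138. These cells differed in depth: the median was 5649.5 UMIs in neuroblasts with 3 of the genes and 22964 in those with 6.

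Cells on both sides of the threshold showed the step that the rule makes. Cells with 2 of the genes had 211 CPM (UMIs of a gene on the usual per-library scale, summed over the cells) of SoxN and 26.1 CPM of sna, cells with exactly 3 had 389 and 92.4 CPM, and cells with 6 had 782 and 220 CPM. A list of 12 neuron genes (elav, nSyb, Syt1, brp and others) ran the other way, with 8534 CPM in cells with 2 of the genes, 5391 with 3 and 823 with 6. Neuroblasts with 3 of the genes carried more neuron transcripts than those with 6. A list of 10 glia genes did not fall evenly. It was at 2264.5 CPM with 2 of the genes, 1707 with 3, 2270 with 4 and 589 with 6.

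The label was checked against markers of other cells. The neuron list took a median of 0.0825% of a neuroblast's UMIs and 1.05% of the UMIs of another cell, and the glia list (repo, alrm, moody and others) took 0.0525% and 0.0680%. The neuron gene elav still had a UMI in 57.4% of neuroblasts and 72.9% of other cells, and after each cell was thinned to 1000 UMIs in 11.2% and 32.3%. The glial gene repo was found in 5.92% of neuroblasts and 5.67% of other cells. A list of 6 genes of undifferentiated neurons (hig, hdc, unk, Thor, scyl and chrb) did not set neuroblasts below other cells. In neuroblasts it summed to 5567 and 6156 CPM in Starvation A and B and 4365, 4011 and 2348 CPM in Normal A, B and C. Other cells had 2595 and 3330.5 CPM in Starvation A and B and 3115, 4339 and 1799 CPM in Normal A, B and C. Only in Normal B were the neuroblasts lower.

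A minority stood apart. In 112 neuroblasts the neuron list took at least 0.3% of the UMIs and in 12 others the glia list took at least 0.5%. These limits were set after the counts had been seen. The 124 cells were unevenly spread, with 46 in Starvation A and 2 in Starvation B, against 15 in Normal A, 12 in Normal B and 49 in Normal C. Exactly 3 of the 6 genes were found in 90 of them and all 6 in 4. Whether they are doublets, cells with free RNA or young daughters was not tested. They are called neuron- or glia-rich here, and results that rest on them are also given for the other 653 neuroblasts.

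Beyond the genes of the rule, transcripts of neural precursor transcription factors and of the cell cycle were among those higher in neuroblasts than in the pool of other cells. The ratios of neuroblasts to other cells describe the cells the rule chose and carry no test. Whether these genes separate neuroblasts from the cells left out for epithelium or newborn neuron genes was not tested. The 25 genes with the highest lowest ratio over the 5 replicates (10 CPM added to both sides) included the factors SoxN, sna, cas, fru, apt, opa, jigr1 and ken, and the cycle genes CycE, Cks30A and pbl. SoxN, a SoxB factor of neural precursors, reached 697 and 1047 CPM in neuroblasts of Starvation A and B and 656, 791 and 558 CPM in those of Normal A, B and C. In the other cells it was at 212 and 238 CPM in Starvation A and B and 171, 270 and 253 CPM in Normal A, B and C. The neuroblasts were above the other cells in every replicate, by at least 2.16 times.

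The zinc finger gene sna, of the same family as wor, was at 237 and 230 CPM in neuroblasts of Starvation A and B and at 163, 182 and 60.3 CPM in those of Normal A, B and C. Other cells had 30.5 and 28.4 CPM in Starvation A and B and 15.4, 29.4 and 25.3 CPM in Normal A, B and C. The median ratio of 6.10 was the highest among the 25 genes, and Normal C was the lowest replicate. Next in median ratio were CG15646 with 4.96 and CG17265, first by its lowest ratio, with 4.87.

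Castor (cas), a temporal factor of the embryonic neuroblast series, had 162 and 362 CPM in neuroblasts of Starvation A and B and 272, 189 and 116 CPM in those of Normal A, B and C, against 34.7 to 53.6 CPM in other cells. Transcripts of fru, which encodes BTB zinc finger proteins, stood at 201 to 491 CPM in neuroblasts of the 5 replicates and at 42.9 to 99.3 CPM in other cells. The secreted synaptic matrix gene hig had 1146 and 1341 CPM in neuroblasts of Starvation A and B, and 787, 503 and 264 CPM in those of Normal A, B and C, against 123 to 275 CPM in other cells. It is also one of the markers by which the study described undifferentiated neurons, and it was above other cells in neuroblasts of every replicate.

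Nuclear import and metabolism were represented by Pen, an importin alpha (250 to 716 CPM in neuroblasts, 64.4 to 354 CPM in other cells), Aldh, an aldehyde dehydrogenase (467 to 742 CPM, 122 to 246 CPM), and Jheh2, a juvenile hormone epoxide hydrolase (53.0 to 107 CPM, 12.3 to 26.0 CPM). The range of Pen in neuroblasts overlapped that in other cells only because other cells of Normal C were high, and within each replicate the neuroblasts were higher. Chd64, a calponin-related protein, was even across replicates, at 354 and 399 CPM in neuroblasts of Starvation A and B and 319, 459 and 414 CPM in those of Normal A, B and C.

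**Figure D2:**
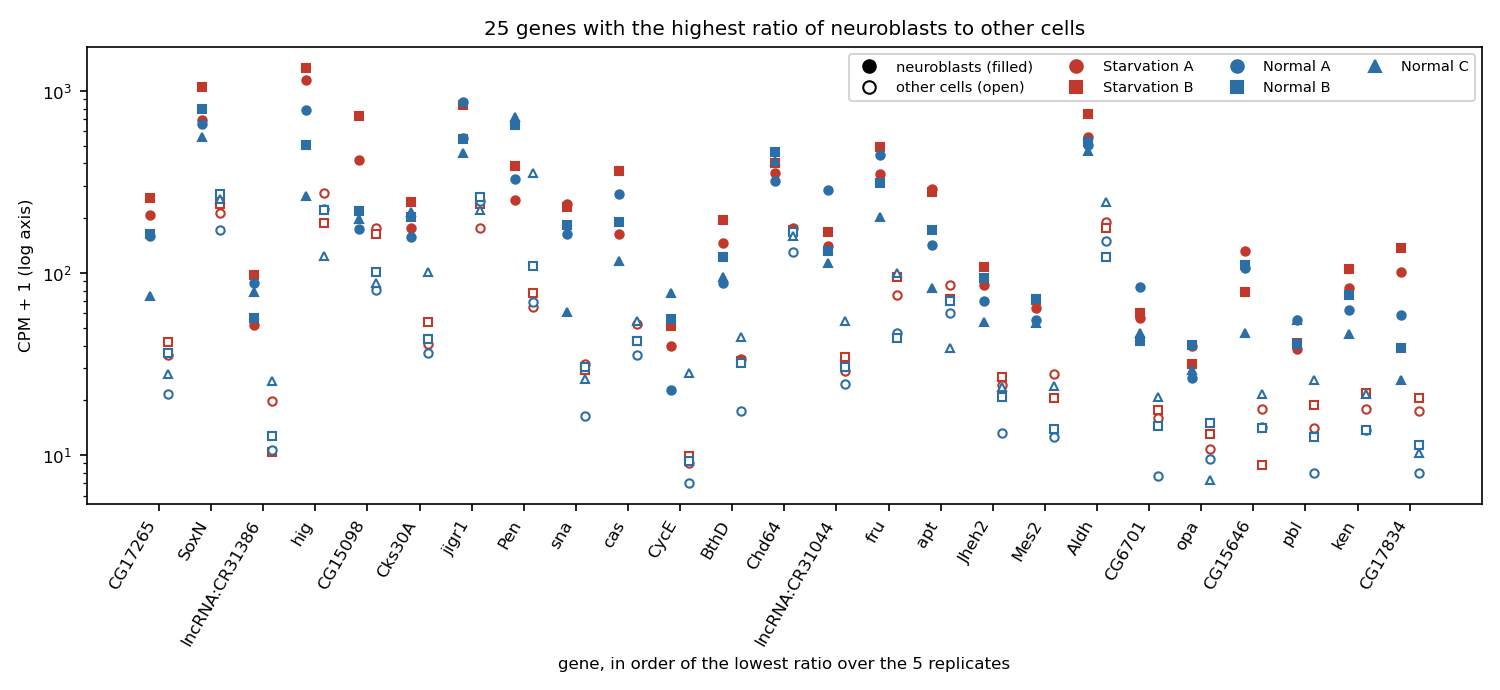
CPM plus 1 (log axis) of the 25 genes with the highest ratio of neuroblasts (filled) to other cells (open), in 5 replicates, starvation in red and normal in blue. The filled points of each gene lie above the open points of the same replicate, by a lowest ratio of 1.80 for CG17834 to 2.27 for CG17265.

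Ribosomal proteins filled a large part of the neuroblast transcriptome. A list of 87 cytosolic ribosomal protein genes took a median of 46.7% of a neuroblast's UMIs and 21.8% of another cell's. By replicate the median was 48.6% and 51.9% in neuroblasts of Starvation A and B and 22.0%, 46.6% and 41.3% in those of Normal A, B and C. The other cells had 22.7% and 22.4% in Starvation A and B and 15.4%, 20.5% and 24.3% in Normal A, B and C. Normal A had the lowest value in neuroblasts and also in other cells. In Normal A 44.1% of the neuroblasts were neuron- or glia-rich, and in Normal C 41.5%. The part of such cells in these values was not tested.

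Cell cycle transcripts were higher as well. The list of 32 S phase genes (PCNA, the Mcm genes, CycE and others) took a median of 0.156% of the UMIs of a neuroblast and 0.0704% of those of another cell, and the 41 G2 and M phase genes (CycA, CycB, Cdk1, polo and others) 0.182% and 0.0849%. Only 8 of 777 neuroblasts had no UMI of the S phase list. Cyclin E, which drives entry into S phase, was found in 29.7% of neuroblasts and 5.25% of other cells, and Cyclin A in 47.0% and 11.4%. The mitotic kinase gene polo was found in 38.5% of neuroblasts and 8.42% of other cells. After thinning to 1000 UMIs the neuroblast share stayed the higher one, with 5.53% and 0.594% for CycE, 7.72% and 1.96% for CycA and 5.02% and 1.58% for polo. Not every cycle gene was found more often. The anaphase activator fzr was found in 16.5% of neuroblasts and 23.3% of other cells, and the centrosomal gene tacc in 48.5% and 53.8%, or in 7.21% and 13.3% after thinning. For stg, the Cdc25 phosphatase that starts mitosis, the shares were 24.6% of neuroblasts and 10.1% of other cells, and 3.35% and 3.21% after thinning. By level stg was at 20.2 to 50.4 CPM in neuroblasts and 17.4 to 66.7 CPM in other cells, higher in neuroblasts of Normal A and lower in those of the other 4 replicates. The genes named here were chosen after their values were seen.

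Several genes of asymmetric division were found in a larger share of neuroblasts. Galphai, a subunit that anchors the spindle orientation complex, was found in 65.9% of neuroblasts and 17.9% of other cells, the apical polarity gene baz in 41.96% and 9.12%, and insc, which links them, in 15.8% and 2.68%. Spindle gene mud was found in 19.3% and 4.10%. After thinning these shares were 13.8% and 4.24% for Galphai, 6.31% and 2.13% for baz, 2.19% and 0.429% for insc, and 2.45% and 0.594% for mud. Others of the 18 listed genes ran the other way once thinned. Examples were dlg1 (12.0% and 31.1%), Gbeta13F (46.1% and 76.6%), aPKC (6.82% and 9.31%) and numb (4.38% and 6.67%). Summed over the 18, neuroblasts were below other cells in every replicate. The sums were 1647 and 1406 CPM in neuroblasts of Starvation A and B and 2574, 1687 and 2050 CPM in those of Normal A, B and C. Other cells had 3035 to 3729 CPM. For brat and pros, which act in the daughter cell, the direction depended on the measure. A UMI of pros was found in 40.9% of neuroblasts and 19.96% of other cells, and of brat in 70.9% and 65.3%. After thinning the shares were 6.18% and 7.53% for pros and 15.7% and 25.3% for brat. By level both were lower in neuroblasts than in other cells of the same replicate in all 5 replicates, with pros at 55.3 to 76.1 CPM in neuroblasts and 91.7 to 175 CPM in other cells, and brat at 153 to 243 CPM and 234 to 339 CPM.

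Temporal genes were read next. Imp, an RNA-binding protein of early larval neuroblasts, had a UMI in 99.4% of neuroblasts, and its partner chinmo, a BTB zinc finger factor, in 98.6%. The late factor Syp was found in 9.91% of neuroblasts, and Eip93F in 0 of 777, which allows a share of cells with a UMI of up to 0.386% and sets no limit on cells that express the gene. Imp and chinmo were as common in the other cells (95.7% and 96.3%), and thinned shares were 83.9% in neuroblasts and 81.0% in other cells for Imp, and 71.9% and 79.1% for chinmo. The heterochronic gene lin-28, an RNA-binding protein of stem cells, differed more, with 55.2% of neuroblasts and 11.2% of other cells, and 10.7% and 2.23% after thinning. D, the Dichaete Sox factor, was found in 37.5% of neuroblasts and 13.04% of other cells, svp, a nuclear receptor of the temporal switch, in 28.4% and 10.0%, and the early factors hb in 1.54% and 2.80%, and Kr in 14.4% and 21.3%.

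Regional factors were each found in a part of the neuroblasts, and whether they mark separate groups was not tested. The most widely found were hth, a homeodomain cofactor, in 79.8% of neuroblasts and vvl, a POU factor, in 63.4%, though other cells also held them (73.7% and 39.0%). Optix was found in 29.7% of neuroblasts and 16.2% of other cells, the buttonhead-related gene Sp1 in 25.5% and 8.46%, and tll, an orphan receptor of the protocerebrum, in 25.1% and 6.90%. After thinning, Optix was at 10.3% and 7.22%, Sp1 at 10.0% and 3.47%, and tll at 4.12% and 1.53%. The eye field gene toy, found in 35.6% and 30.5%, and Oli, found in 29.6% and 36.1%, were lower in neuroblasts once thinned (7.59% and 12.2% for toy, 2.83% and 7.69% for Oli).

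Type II neuroblasts lack ase and express the Ets factor pnt. Among the 653 neuroblasts that were not neuron- or glia-rich, 308 had no ase UMI and 345 had one. The cells without ase were shallower, with a median of 5762 UMIs against 12262 in the cells with ase. Even so pnt was found in 26.0% of the cells without ase and 17.7% of those with it, and after thinning in 9.09% and 4.06%. Sp1 showed thinned shares of 13.3% and 9.28%, btd, found in few cells, 1.62% and 0.870%, and Optix, nearly even, 10.7% and 9.86%. In the other direction D stood at 5.84% of cells without ase and 10.1% of cells with it. The same held for tll, at 3.90% and 4.93%, and for the proneural gene l(1)sc, at 1.62% and 3.77%. These shares are given as a description, since ase was part of the rule and a missing UMI does not show that the gene was off.

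**Figure D3:**
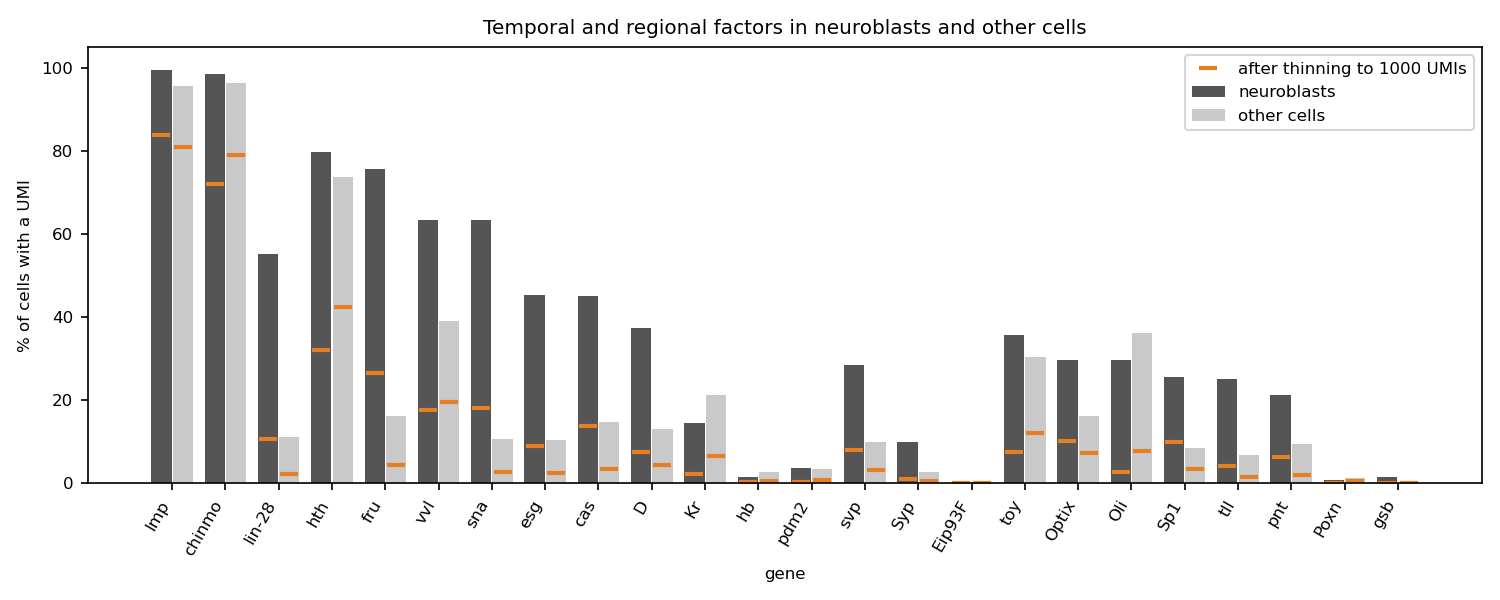
Percent of cells with a UMI of temporal and regional factors, in neuroblasts (dark bars) and other cells (light bars), with orange dashes for the shares after thinning to 1000 UMIs. Imp and chinmo are near the top in both, sna (63.3% and 10.7%), fru (75.5% and 16.3%) and lin-28 (55.2% and 11.2%) differ widely, and Eip93F is at 0 in neuroblasts.

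The comparison of conditions asks which transcripts of neuroblasts differ after 4 hr without food. Counts were summed over the neuroblasts of each replicate and tested with edgeR. No gene of 7238 passed an adjusted p of 0.05 (0%), the smallest adjusted p being 0.172, while 522 genes were higher (7.21%) and 375 lower (5.18%) in starvation at an unadjusted p under 0.05. DESeq2, a second count test, called 118 genes, 92 of them higher (1.27%) and 26 lower (0.359%) in starvation. DESeq2 gave an adjusted p for 3868 of the 7238 genes, and of these 2.38% were called higher and 0.672% lower. Requiring at least 4 of the 6 genes, which left 15 to 228 neuroblasts per replicate, edgeR called 79 genes, 66 higher (0.968%) and 13 lower (0.191%), and 61 of them were among the 118. Without the neuron- or glia-rich neuroblasts edgeR called 15 genes (12 higher, 0.175%, and 3 lower, 0.0438%) and DESeq2 164 (110 higher, 1.61%, and 54 lower, 0.789%). Without these and the minor barcodes edgeR called 114 (89 higher, 1.40%, and 25 lower, 0.393%), of which 68 were among the 118. Without minor barcodes alone edgeR called no gene of 6929, with 1000 at an unadjusted p under 0.05. The word "called" below refers to DESeq2 on all neuroblasts unless another fit is named, and every edgeR value for all neuroblasts missed the threshold. Log2 fold changes and their SE are those of edgeR, also where a DESeq2 adjusted p stands beside them. The SE was derived from the fold change and edgeR's F statistic.

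Levels between conditions are given as scaled CPM, in which the library sizes were adjusted by TMM, a factor per replicate that centres the bulk of genes. With the library sizes alone, the median of all genes moved to -0.34 on the log2 scale, against -0.06 with TMM. For many genes the replicates of the conditions did not overlap: 1307 genes (18.1%) were higher in both starvation replicates than in all 3 normal replicates, and 1060 (14.6%) were lower in both. These shares are the background for the counts of each list.

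Genes of the insulin and TOR pathway were mostly higher in starvation. Of 32 tested, 19 were higher in both starvation replicates than in any normal replicate and 3 lower, with a median log2 fold change of 0.68 (0.34 with library sizes alone) against 0.20 in the other cells. DESeq2 called 3, all higher. The insulin receptor gene InR was at 583 and 922 scaled CPM in neuroblasts of Starvation A and B, against 347, 306 and 201 scaled CPM in Normal A, B and C. Its log2 fold change was 1.41 ± 0.379 (SE, edgeR adjusted p = 0.241, DESeq2 adjusted p = 0.0213). Both starved values were above all normal ones, and so they were without the neuron- or glia-rich cells (log2 fold change 1.25).

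REPTOR-BP, the bZIP partner of the TORC1-repressed factor REPTOR, was at 570 and 689 scaled CPM in Starvation A and B, against 282, 332 and 170 scaled CPM in Normal A, B and C (log2 fold change 1.27 ± 0.372, DESeq2 adjusted p = 0.0473). The lipase gene bmm, a foxo target that releases stored fat, was at 81.8 and 123 scaled CPM in Starvation A and B, against 25.6, 32.6 and 16.4 scaled CPM in Normal A, B and C. Its log2 fold change was 2.04 ± 0.389. The gene was called by DESeq2 (adjusted p = 0.00476) and by edgeR in neuroblasts with at least 4 of the genes (adjusted p = 0.0257). In the other cells the log2 fold change of bmm was 0.84, and the difference between neuroblasts and other cells was 1.24 (unadjusted p = 0.0114 in edgeR's interaction test, not past the threshold after adjustment). In that test 405 of 8482 genes had an unadjusted p under 0.05, no more than chance alone would give.

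Smaller differences were seen upstream in the pathway. Transcripts of chico, Pi3K92E, Pi3K21B, Pdk1 and Rheb, which carry the insulin signal to TOR, were each higher in both starvation replicates than in any normal one, with log2 fold changes of 0.95, 1.06, 0.73, 1.03 and 0.90, and none was called (Pi3K92E had no DESeq2 adjusted p). Myc, a driver of growth, was at 512 and 917 scaled CPM in Starvation A and B, against 347, 406 and 228 scaled CPM in Normal A, B and C, and was not called (log2 fold change 1.13, DESeq2 adjusted p = 0.120).

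Genes of a list named growth repressors were mostly higher in starvation too. It holds genes of translation control, autophagy and the starvation response, and whether each member restrains growth was not tested. Of 22 in this list, which shares members with the insulin and TOR list, 16 were higher in both starvation replicates than in any normal replicate and 1 was lower, with a median log2 fold change of 0.95 (0.63 with library sizes alone) against 0.34 in the other cells. DESeq2 called 7, all higher. Some of these genes were put on the list after earlier results of these data were known, so the count is no independent evidence of a direction. The translation inhibitor Pdcd4 was at 1248 and 2046 scaled CPM in Starvation A and B, against 484, 628 and 557 scaled CPM in Normal A, B and C (log2 fold change 1.56 ± 0.366, DESeq2 adjusted p = 0.00157). Lk6, a kinase of the cap-binding factor eIF4E, was at 795 and 1180 scaled CPM in Starvation A and B, against 339, 438 and 312 scaled CPM in Normal A, B and C (log2 fold change 1.44 ± 0.351, DESeq2 adjusted p = 0.00453).

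Without neuron- or glia-rich cells and minor barcodes, edgeR itself called Pdcd4 and Lk6, with an adjusted p of 0.0449 for each. Atg8a, the ubiquitin-like protein of autophagosomes, was at 533 and 704 scaled CPM in Starvation A and B, against 325, 292 and 289 scaled CPM in Normal A, B and C (log2 fold change 1.04, DESeq2 adjusted p = 0.0325). The kinase gene Atg1, which starts autophagy, was at 124 and 129 scaled CPM in Starvation A and B, against 68.4, 63.1 and 47.1 scaled CPM in Normal A, B and C, and missed the threshold (DESeq2 adjusted p = 0.0748). Both autophagy genes had starved values above all normal ones.

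Another 3 called genes have annotation numbers for names: CG6770 (1397 and 1552 scaled CPM in Starvation A and B, against 772, 722 and 553 scaled CPM in Normal A, B and C), CG16721 (60.3 and 53.3 scaled CPM in Starvation A and B, against 14.2, 18.7 and 9.72 scaled CPM in Normal A, B and C) and CG11658 (120 and 140 scaled CPM in Starvation A and B, against 51.3, 30.6 and 9.34 scaled CPM in Normal A, B and C). Their DESeq2 adjusted p values were 0.0210, 0.0126 and 0.0279. The study counts these genes among those downstream of the REPTOR and REPTOR-BP complex, and reports that starvation affected them in these same samples. Thor, the 4E-BP translation repressor and foxo target, was at 899 and 1474 scaled CPM in Starvation A and B, against 513, 639 and 125 scaled CPM in Normal A, B and C. It was not called (log2 fold change 1.48 ± 0.613, DESeq2 adjusted p = 0.178). For Thor, Normal C was far below the other normal replicates.

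Cytosolic ribosomal protein transcripts were higher almost as a block. Of 83 tested, 79 were higher in both starvation replicates than in any normal replicate and 0 were lower, with a median log2 fold change of 0.74 against 0.21 in the other cells, where 0 were higher in this sense. No single gene was called by edgeR or DESeq2, and 1 had an unadjusted edgeR p under 0.05. Summed over 87 genes they reached 474940 and 661920 scaled CPM in Starvation A and B, against 221380, 427340 and 372650 scaled CPM in Normal A, B and C. With the library sizes alone the sums were 461540 and 513310 CPM in Starvation A and B, against 281790, 427960 and 380410 CPM in Normal A, B and C, and the list median was 0.43. It was 0.49 without Normal A. The gap between the highest normal and the lowest starved value was narrow on both scales. RpL3, of the large subunit, was at 4811 and 6047 scaled CPM in Starvation A and B, against 1951, 3956 and 3087 scaled CPM in Normal A, B and C (log2 fold change 0.86 ± 0.418, DESeq2 adjusted p = 0.224). Without neuron- or glia-rich cells 78 of 83 were higher without overlap, against 19.0% of all genes, and the list median was 0.62.

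Ribosome biogenesis factors ran in the other direction. Of 35 tested, 16 were lower in both starvation replicates than in any normal replicate and 1 was higher, with a median log2 fold change of -0.70 against -0.88 in the other cells, and DESeq2 called 1 in each direction. The median was -0.22 without Normal B and -0.28 after thinning. The snoRNP protein gene hoip was at 198 and 134 scaled CPM in Starvation A and B, against 313, 857 and 616 scaled CPM in Normal A, B and C (log2 fold change -1.84 ± 0.485, DESeq2 adjusted p = 0.00921). NHP2, of the H/ACA snoRNP, was at 163 and 140 scaled CPM in Starvation A and B, against 236, 526 and 332 scaled CPM in Normal A, B and C (log2 fold change -1.27, DESeq2 adjusted p = 0.0677). The nucleolar chaperone gene Nopp140 was at 62.6 and 36.0 scaled CPM in Starvation A and B, against 131, 211 and 96.8 scaled CPM in Normal A, B and C (log2 fold change -1.54, DESeq2 adjusted p = 0.0564).

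In each of these genes, Normal B had the highest value of the normal replicates. Without neuron- or glia-rich cells and minor barcodes edgeR called hoip, NHP2 and Nopp140, with adjusted p of 0.0299, 0.0449 and 0.0449. Non1, a nucleolar GTPase, was the member called higher. It was at 1059 and 1096 scaled CPM in Starvation A and B, against 356, 556 and 245 scaled CPM in Normal A, B and C (log2 fold change 1.48 ± 0.405, DESeq2 adjusted p = 0.0225). Without neuron- or glia-rich cells 23 of 35 were lower in both starvation replicates, against 15.2% of all genes.

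**Figure D4:**
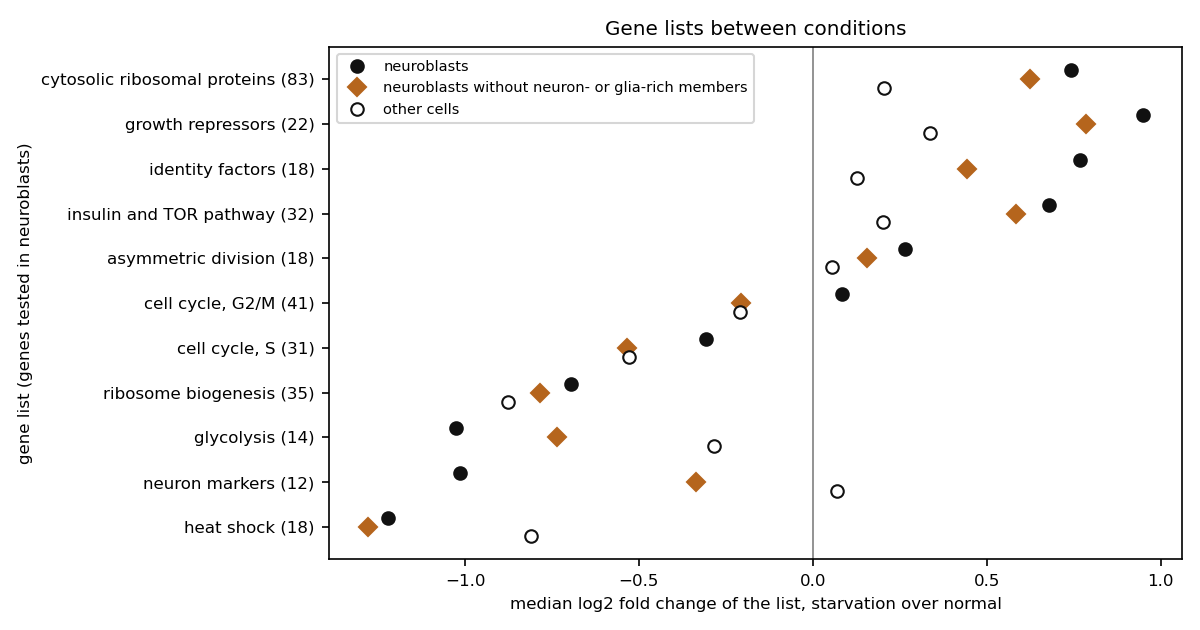
Median log2 fold change of each gene list, starvation over normal, in all neuroblasts (black), in neuroblasts without neuron- or glia-rich cells (orange) and in other cells (open). Cytosolic ribosomal proteins (0.74) and growth repressors (0.95) lie right of 0 and ribosome biogenesis (-0.70) and heat shock (-1.22) left of it, and the G2/M list changes side without the rich cells.

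Heat shock genes were lower in starvation. Of 18 tested, 12 were lower in both starvation replicates than in any normal replicate and 0 were higher, with a median log2 fold change of -1.22 against -0.81 in the other cells. DESeq2 called 7, all lower. Hsp68, an inducible chaperone of the Hsp70 family, was at 13.6 and 22.3 scaled CPM in Starvation A and B, against 253, 128 and 121 scaled CPM in Normal A, B and C (log2 fold change -3.25 ± 0.490, DESeq2 adjusted p = 8.2e-07). Hsp70Bc was at 11.7 and 1.24 scaled CPM in Starvation A and B, against 205, 107 and 71.0 scaled CPM in Normal A, B and C (log2 fold change -3.92 ± 0.726, DESeq2 adjusted p = 1.62e-05). Reads of Hsp70Bc cannot be fully separated from those of its near-identical copies.

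Hsp83, the fly Hsp90, was at 397 and 332 scaled CPM in Starvation A and B, against 943, 2071 and 2286 scaled CPM in Normal A, B and C (log2 fold change -2.28 ± 0.486, DESeq2 adjusted p = 0.000147). The Hsp40 cochaperone DnaJ-1 was at 51.9 and 45.9 scaled CPM in Starvation A and B, against 142, 148 and 123 scaled CPM in Normal A, B and C (log2 fold change -1.49 ± 0.305, DESeq2 adjusted p = 0.00453). For DnaJ-1 the gap between the conditions was wider than the spread within either, whereas for Hsp83 Normal A was well below the other normal replicates. Hsp67Bc, Hsp26 and Hsp60A completed the 7. Of the 330 UMIs of Hsp26 in Starvation B, 63.6% came from 1 cell. The constitutive chaperone gene Hsc70-4 did not follow, with a log2 fold change of 0.47 and overlapping replicates.

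Without neuron- or glia-rich cells edgeR called Hsp68 (adjusted p = 0.0327) and Hsp70Bc (0.0431). The log2 fold changes in the other cells were -3.15 for Hsp68 and -3.73 for Hsp70Bc, and the differences between neuroblasts and other cells, of -0.33 and -0.38, were within their standard errors. The long noncoding RNA lncRNA:CR42491 had a like pattern, at 5.26 and 7.44 scaled CPM in Starvation A and B, against 122, 58.2 and 60.2 scaled CPM in Normal A, B and C (log2 fold change -3.68 ± 0.510, DESeq2 adjusted p = 8.2e-07). Another, lncRNA:CR42862, was higher at 381 and 321 scaled CPM in Starvation A and B, against 142, 96.7 and 83.7 scaled CPM in Normal A, B and C (log2 fold change 1.73 ± 0.337, DESeq2 adjusted p = 0.000959).

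**Figure D5:**
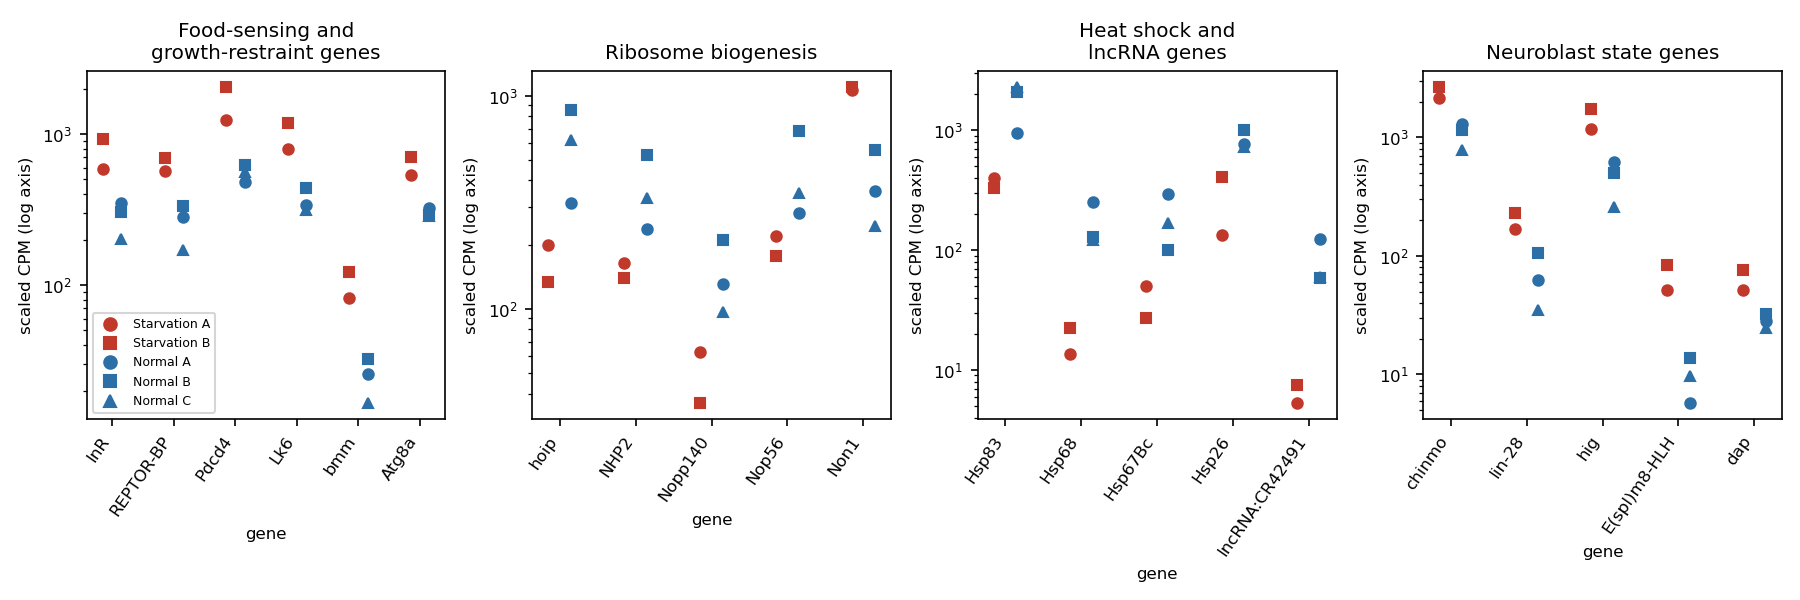
Scaled CPM (log axis) per replicate in neuroblasts, starvation in red left of normal in blue, for food-sensing and growth-restraint genes, ribosome biogenesis, heat shock and lncRNA genes, and neuroblast state genes. For each gene shown the 2 starvation points lie on one side of the 3 normal points, as for bmm (81.8 and 123 against 25.6, 32.6 and 16.4 scaled CPM).

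The 6 genes of the rule had overlapping replicates, with log2 fold changes from 0.34 for ase to 0.55 for dpn. Since every cell was chosen on these genes, their levels are a description and do not show whether starvation changes them. Among 18 other identity factors 9 were higher in both starvation replicates than in any normal replicate and 1 was lower, with a median of 0.77 and 1 called. Without the rich cells 6 were higher and 1 lower, with a median of 0.44, and the median was 0.43 without Starvation B and 0.39 with library sizes alone. E(spl)m8-HLH, a bHLH repressor that Notch switches on, was at 51.2 and 84.3 scaled CPM in Starvation A and B, against 5.70, 13.8 and 9.72 scaled CPM in Normal A, B and C (log2 fold change 2.64 ± 0.409, DESeq2 adjusted p = 0.000783). E(spl)mgamma-HLH, a Notch target expressed in larval neuroblasts, was at 91.3 and 187 scaled CPM in Starvation A and B, against 0, 41.4 and 15.7 scaled CPM in Normal A, B and C.

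For E(spl)mgamma-HLH the DESeq2 adjusted p was 0.325, whereas edgeR called it in neuroblasts with at least 4 of the genes (adjusted p = 0.0257). No UMI of it was found in the 34 neuroblasts of Normal A. In the other cells the log2 fold change was 2.04 for E(spl)m8-HLH and 1.20 for its mgamma relative. These bHLH genes are also expressed in the optic lobe epithelium. Of the epithelium genes in the rule, Brd was at 12.9 and 8.68 scaled CPM in Starvation A and B, against 0, 6.91 and 4.11 scaled CPM in Normal A, B and C, while Ocho and Tom overlapped. The part of such cells in the result was not tested. Neither sna nor esg, of the Snail family, was called. Values of sna were 244 and 296 scaled CPM in Starvation A and B, against 128, 182 and 59.0 scaled CPM in Normal A, B and C, and those of esg were 120 and 90.5 scaled CPM in Starvation A and B, against 31.3, 77.0 and 15.7 scaled CPM in Normal A, B and C.

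Of 18 temporal genes tested, 5 were higher and 0 lower in both starvation replicates than in any normal replicate, with a median log2 fold change of 0.25 that turned to -0.02 with library sizes alone. DESeq2 called chinmo. It was at 2135 and 2658 scaled CPM in Starvation A and B, against 1296, 1157 and 789 scaled CPM in Normal A, B and C (log2 fold change 1.15 ± 0.372, DESeq2 adjusted p = 0.0402). lin-28 was at 167 and 229 scaled CPM in Starvation A and B, against 62.7, 107 and 35.1 scaled CPM in Normal A, B and C, and missed the threshold (log2 fold change 1.53 ± 0.457, DESeq2 adjusted p = 0.0763). In both genes Normal C was the lowest replicate. The marker hig was at 1180 and 1730 scaled CPM in Starvation A and B, against 618, 503 and 259 scaled CPM in Normal A, B and C, and was called (log2 fold change 1.67 ± 0.438, DESeq2 adjusted p = 0.0142).

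The hig difference was 0.35 in the other cells, and 1.37 larger in neuroblasts (unadjusted p = 0.00802 in edgeR's interaction test, above the adjusted threshold). In that test 405 of 8482 genes had an unadjusted p under 0.05, no more than chance alone would give, so no response particular to neuroblasts is claimed. The study names hig, hdc, unk, Thor, scyl and br as genes of undifferentiated neurons. The list used here held the first 5 of these and chrb, and all its 6 genes were higher in both starvation replicates than in any normal replicate, or 5 of 6 without the rich cells. The transcription factor gene br, which was not on that list, was at 53.8 and 11.2 scaled CPM in Starvation A and B, against 99.7, 35.03 and 61.7 scaled CPM in Normal A, B and C, and overlapped (log2 fold change -0.84). The headcase gene hdc was at 1895 and 2863 scaled CPM in Starvation A and B, against 1105, 1463 and 965 scaled CPM in Normal A, B and C (log2 fold change 1.01 ± 0.379, DESeq2 adjusted p = 0.0874). The RNA-binding protein gene unk was at 299 and 243 scaled CPM in Starvation A and B, against 151, 117 and 63.9 scaled CPM in Normal A, B and C (log2 fold change 1.32, DESeq2 adjusted p = 0.0726). Because the study described these genes on these same samples, and chrb was added with earlier results known, the list is not independent evidence of a direction.

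Cell cycle genes showed no called difference. Of 31 S phase genes tested, 1 was higher and 3 were lower in both starvation replicates than in any normal replicate, with a median log2 fold change of -0.31 against -0.53 in the other cells. Without the rich cells 1 was higher and 10 were lower, with a median of -0.53, and the median of all neuroblasts was -0.09 without Normal B, -0.12 without Starvation A and -0.57 with library sizes alone. The higher one was dap, the p27-like inhibitor of Cyclin E, at 51.6 and 75.6 scaled CPM in Starvation A and B, against 28.5, 32.6 and 24.7 scaled CPM in Normal A, B and C (log2 fold change 1.14 ± 0.332, DESeq2 adjusted p = 0.162). The helicase gene Mcm7 was at 30.1 and 33.5 scaled CPM in Starvation A and B, against 37.0, 66.1 and 60.9 scaled CPM in Normal A, B and C, and the licensing factor dup at 7.65 and 6.20 scaled CPM in Starvation A and B, against 14.2, 15.8 and 20.6 scaled CPM in Normal A, B and C.

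As a share of a cell's UMIs, without TMM, the S phase list had a median of 0.121% and 0.147% in neuroblasts of Starvation A and B, against 0.158%, 0.214% and 0.178% in Normal A, B and C. These shares were lower in both starvation replicates, while the sums in scaled CPM overlapped (1418 and 2010 in Starvation A and B, against 1267, 2355 and 2241 in Normal A, B and C). Shares in the other cells were lower in both starvation replicates too, at 0.06284% and 0.06325% in Starvation A and B, against 0.07806%, 0.06783% and 0.104% in Normal A, B and C. Of 41 G2 and M phase genes 8 were higher and 2 lower in both starvation replicates, with a median of 0.08, and without neuron- or glia-rich cells 6 were higher and 10 lower with a median of -0.21. No direction is given for the G2/M list.

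Several genes outside the lists differed by more. CG44325 was at 1367 and 1711 scaled CPM in Starvation A and B, against 387, 246 and 185 scaled CPM in Normal A, B and C (log2 fold change 2.51 ± 0.407, DESeq2 adjusted p = 8.2e-07). The chromatin gene ash2, of the histone H3K4 methyltransferase complexes, was at 230 and 299 scaled CPM in Starvation A and B, against 54.1, 81.9 and 49.7 scaled CPM in Normal A, B and C (log2 fold change 2.08 ± 0.341, DESeq2 adjusted p = 0.000147). Both were also called by edgeR without neuron- or glia-rich cells, with an adjusted p of 0.0327 each, beside Rcd5, Syx8, CG14696, CG6765, CG7953, CG3829, Ance, Tep4, magu and lncRNA:CR43855 among the higher genes.

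The SoxC factor Sox14 was at 38.5 and 64.5 scaled CPM in Starvation A and B, against 8.54, 12.3 and 5.61 scaled CPM in Normal A, B and C (log2 fold change 2.51 ± 0.452, DESeq2 adjusted p = 0.00517). mlt, a tubulin-binding cofactor relative, was at 174 and 270 scaled CPM in Starvation A and B, against 57.0, 54.8 and 23.5 scaled CPM in Normal A, B and C (log2 fold change 2.34 ± 0.437, DESeq2 adjusted p = 0.000959). Both ferritin genes were called: Fer1HCH was at 1122 and 1332 scaled CPM in Starvation A and B, against 590, 480 and 523 scaled CPM in Normal A, B and C, and Fer2LCH at 1277 and 1661 scaled CPM in Starvation A and B, against 598, 549 and 604 scaled CPM in Normal A, B and C. Their DESeq2 adjusted p values were 0.00425 and 0.00126.

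The remaining called genes that the naming rule gave were, among the higher ones, CG7953, Ance, CG6231, CG1572, Cyp6a17 and lncRNA:CR43855, and among the lower ones, CG6084, CG12288, Ms, CG33639 and Ddc. In neuroblasts with at least 4 of the genes or without rich cells and minor barcodes the rule also gave CG3829, GstT4, Ude, CG15309 and CG6191 as higher and Fas3, eEF1delta and CG9286 as lower. Some of these rest on few cells. Of the UMIs of lncRNA:CR43855, 1 cell gave 45.2% in Starvation A and 92.5% in Starvation B. For GstT4 1 cell gave 60.1% in Starvation A and 87.5% in Starvation B, and for Ance 39.9% and 60.5%. CG15550, called with lncRNA:CR43855 when Starvation B was left out, had 93.9% of its 952 UMIs in 1 cell of Starvation A.

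Of the lower genes, 3 rested on the neuron- or glia-rich cells. The neuropeptide gene Ms (myosuppressin) was at 176 and 31.0 scaled CPM in Starvation A and B, against 319, 1682 and 6151 scaled CPM in Normal A, B and C (log2 fold change -4.68 ± 1.31, DESeq2 adjusted p = 0.0371). In Normal B 1 cell gave 90.2% of its UMIs. Without the rich cells Ms was at 183 and 30.2 scaled CPM in Starvation A and B, against 210, 163 and 224 scaled CPM in Normal A, B and C, and the replicates overlapped. Likewise Ddc, of dopamine and serotonin synthesis, and CG33639 overlapped without them, with log2 fold changes of -0.41 and -0.36 in place of -2.23 and -2.46.

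Neuron and glia transcripts varied between the replicates in the summed neuroblasts. The 12 neuron genes came to 1903 and 458 CPM in Starvation A and B, against 4880, 1488 and 3757 CPM in Normal A, B and C, and the 10 glia genes to 1325 and 242 CPM in Starvation A and B, against 5333, 418 and 1525 CPM in Normal A, B and C. Their part in the other results was not tested beyond the fits without the rich cells. The list of glycolysis genes (14 tested) had a median log2 fold change of -1.03 and of -0.74 without the rich cells, with 1 lower in both starvation replicates and 6 without the rich cells. Its median was -0.48 without Starvation B and -1.58 without Starvation A.

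Whether neuroblasts responded differently from the other cells was tested by the interaction of cell class and condition. No gene of 8482 passed (edgeR, 0%), the smallest adjusted p was 0.815, and 405 genes had an unadjusted p under 0.05. That number is no more than chance alone would give. The other cells alone gave 0 calls among 8968 genes (smallest adjusted p 0.101, 858 at an unadjusted p under 0.05). Both cell classes come from the same libraries. A difference between neuroblasts and the rest of the brain was thus not detectable for single genes with 2 starvation and 3 normal replicates.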

How the data were processed

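Brain cells of Drosophila larvae were profiled in 3 starvation and 4 normal droplet libraries. The authors counted UMIs with Cell Ranger on a reference built from FlyBase release 6, and deposited raw counts per gene and cell over 17493 genes. Libraries were linked to the experiments of the study's sequencing table by cell number, median genes and median UMIs, which gave 2 starvation and 3 normal replicates. Counts of the neuroblasts were summed per replicate and tested with edgeR 4.0.16 (quasi-likelihood, TMM, filterByExpr) on limma 3.58.1, adjusted by Benjamini and Hochberg at 0.05, with DESeq2 1.42.0 as an alternative, in R 4.3.3. DESeq2 left 3370 adjusted p values undefined. Cells were never replicates. No doublet caller was run, and cells over 4499 genes were left out. The code was tested on simulated data. Sums and figures were made with Python 3.11.15 (numpy 2.4.6, pandas 2.3.3, scipy 1.17.1, matplotlib 3.10.9). Shares of cells were also computed after thinning each cell to 1000 UMIs. The limit given for Eip93F covers counting error only, whereas the SD and SE values include the spread between replicates. Named genes were the listed genes that a fit called, for each fit the 10 largest and 10 smallest called log2 fold changes with an average log2 CPM over 4 and non-overlapping replicates, the 25 genes highest in neuroblasts, and the factors found in most neuroblasts; individual cell cycle, polarity and signalling genes given as examples and those in the ase comparison were chosen after their values had been seen. The cell rule and the gene lists were chosen with earlier results of these data known. Alternatives covered the test, scaling, filter, replicates, shared barcodes, marker number and depth.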

Additional observations from a re-analysis of the deposited data

How the results depend on the processing

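The number of genes called by edgeR between conditions was 0 with all neuroblasts, and it depended on the test and on the cells. It was 118 with DESeq2, 441 with no filter on low counts, 79 with at least 4 of the genes, and 0 to 2 when a replicate was left out. Among alternatives chosen after seeing the data it was 15 without neuron- or glia-rich cells, 114 without these and the minor barcodes, and 164 with DESeq2 without the rich cells. With the 7 libraries as separate samples 293 were called, and 0 with a replicate block. Same-numbered libraries correlated at 0.12, -0.47 and 0.33, so the numbers were not taken to pair them. A term for the later libraries (Starvation B and Normal C) gave 0 calls. The cause was not tested. For 74 named genes 286 of 1525 values under the alternatives passed the threshold, and none changed sign, which the choice of genes with non-overlapping replicates largely fixes.

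The share difference of -1.01 points turned to 0.0283 after thinning, 0.520 with at least 4 genes and 0.817 without the rich cells, and it ran from -4.18 to 1.77 with a replicate left out. Of 180 medians of 10 lists, 10 changed sign. The asymmetric division list (0.27) turned to -0.042 with library sizes alone and -0.022 after thinning. The G2/M list (0.08) turned to -0.22 with library sizes alone, -0.12 with at least 4 genes, -0.027 without the deepest cells, -0.037 with 7 libraries, -0.21 without the rich cells and -0.12 without these and minor barcodes, and ran from -0.075 to 0.40 with a replicate left out.

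Normal A had 34 neuroblasts and 275838 UMIs, which limits what the comparison can show. The link of libraries to replicates rests on their cell and UMI numbers.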
